A study of Saccharomyces cerevisiae with 13 samples.

Results

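The comparison set WT cells that overexpressed *YAP1* against WT cells that carried the empty vector, with 3 QuantSeq libraries in each group. These 6 libraries were all those labelled WT pRS426ADH-YAP1 or WT pRS426ADH among the 13 libraries of the series. Both groups were the haploid laboratory strain BY4741 of *S. cerevisiae*. Their labels give the genotype and do not state whether caffeine was given. The overexpression strain carried *YAP1* on pRS426, a high copy number shuttle vector with a *URA3* marker, under the *ADH1* promoter, and the control carried the same vector without an insert. The study's strain list names the insert YAP1-TAP, and the sample labels do not mention the tag. The chromosomal *YAP1* gene was intact in both groups, so the *YAP1* row does not separate transcripts of the chromosome from those of the plasmid. QuantSeq counts transcript ends, which on the plasmid may lie outside *YAP1*, so the row may miss part of the plasmid transcripts. Another group of 3 libraries, the *yap1* mutant with the empty vector, entered the same fit and is given where it adds a level without Yap1. The labels do not say whether libraries of a group came from separate cultures or transformants, so p-values measure the spread between these libraries, which may be technical.

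Yap1 is a bZIP transcription factor of the AP-1 type and the main regulator of the response to peroxides in budding yeast. In unstressed cells it is exported from the nucleus by Crm1, and oxidation of its cysteines blocks this export, so that it accumulates at promoters that hold a Yap1-responsive element. Its known targets include thioredoxins, glutathione enzymes, NADPH-dependent reductases and membrane pumps for drugs and metals.

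QuantSeq reads start from the poly(A) tail, so a count stands for a transcript end and not for transcript length. Total counts were 19375047 to 24452594 in the overexpression libraries and 21384429 to 25609092 in the WT libraries. The 15 rows of rRNA genes took 49.1%, 64% and 43.8% of the counts in the overexpression libraries, against 75%, 63.6% and 62.3% in the WT libraries. The means were 52.3% ± 10.4 and 67.0% ± 6.97 (SD, n = 3 each), and the difference of -14.7 percentage points had p = 0.3 in a two-sided exact permutation test, whose smallest possible p was 0.1. Outside these rows 8814741 to 10881804 counts remained per overexpression library and 6409605 to 9094671 per WT library. Levels are CPM, counts scaled to a common library size after TMM normalization, and fold changes are log2 of *YAP1* overexpression over WT ± SE. Genes were called at a Benjamini-Hochberg adjusted p under 0.05 in edgeR's quasi-likelihood test over all genes, and "called" refers to that test with all libraries unless another fit or tool is named.

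Replicate 2 of WT stood apart from the other 8 libraries. Its level was at least 4-fold below the mean of WT replicates 1 and 3 in 217 of 6781 genes and at least 4-fold above it in 2, with 1 CPM added to each value. Its weight in a voom fit with sample quality weights was 0.158, against 0.793 to 1.89 for the others, and its file used another version of the gene names in 169 rows. The biological coefficient of variation was 25.8% with it and 17.3% without it. The fold changes of called genes and the counts of calls in lists are therefore given with all libraries and without WT replicate 2. The fit without it rests on WT replicates 1 and 3 only. Replicate 1 had the lowest TMM factor, 0.578 against 0.885 to 1.30, and 328 rows at 0 counts against 114 to 186 in the other 8. Of the lists that check the strain, the 7 mating type a markers summed to 865 to 1035 CPM in the overexpression libraries and 482 to 1253 CPM in the WT libraries, the lowest being WT replicate 2. The 4 alpha markers stayed at 12.8 to 20.2 CPM over these 6 libraries. *LEU2* and *MET17* had 0 counts in every plasmid library, while *LYS2*, which the study's genotype lists as deleted, had 31.5, 34.7 and 35.6 CPM in the overexpression libraries and 43.1, 26.8 and 32.9 CPM in the WT libraries.

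*YAP1* itself was measured at 981, 1053 and 1001 CPM in the overexpression libraries, against 43.1, 28.0 and 33.8 CPM in the WT libraries. In the *yap1* mutant the row had 0.337, 0.0878 and 1.04 CPM. The 3 groups did not overlap, and each library matched its label. The log2 fold change of the *YAP1* row over WT was 4.86 ± 0.48, a 28.9-fold rise (adjusted p = 0.0012), and 4.74 ± 0.36 without WT replicate 2. The 7 other members of the Yap family of bZIP factors were not called by edgeR with or without that library, nor by DESeq2 or limma voom with all libraries, and 1 of them had an unadjusted p under 0.05 in edgeR. *CAD1*, also called *YAP2*, had 34.2, 27.7 and 31.0 CPM in the overexpression libraries and 32, 40.4 and 28.6 CPM in the WT libraries. Of the 14 regulators and partners of Yap1, 0 were called by edgeR or DESeq2 with all libraries and 2 had an unadjusted p under 0.05 in edgeR. Voom called *CYC8*, and edgeR without WT replicate 2 called *CYC8* and *RPN4*.

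With all libraries, 30 of 6781 genes rose (0.442%) and 2 fell (0.0295%) in the overexpression strain, and 639 genes had an unadjusted p under 0.05. Without WT replicate 2, 100 of 6825 rose (1.47%) and 12 fell (0.176%), and these included all 30 and both 2 of the first set. Of the genes called higher, all 30 had every overexpression library above every WT library, a pattern that 8.05% of all tested genes showed. Both genes called lower had every overexpression library below every WT library, as did 7.14% of all tested genes. The calls were made on these same libraries, so both patterns describe the calls and add no support to them. Of the 30 genes, 8 belonged to a list of oxidoreductases, 3 to the aryl-alcohol dehydrogenase family, 3 to efflux transporters, 2 to the thioredoxin system and 2 to the glutathione system. In bulk cultures, more cells with a transcript and more transcript per cell cannot be told apart.

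**Figure D1:**
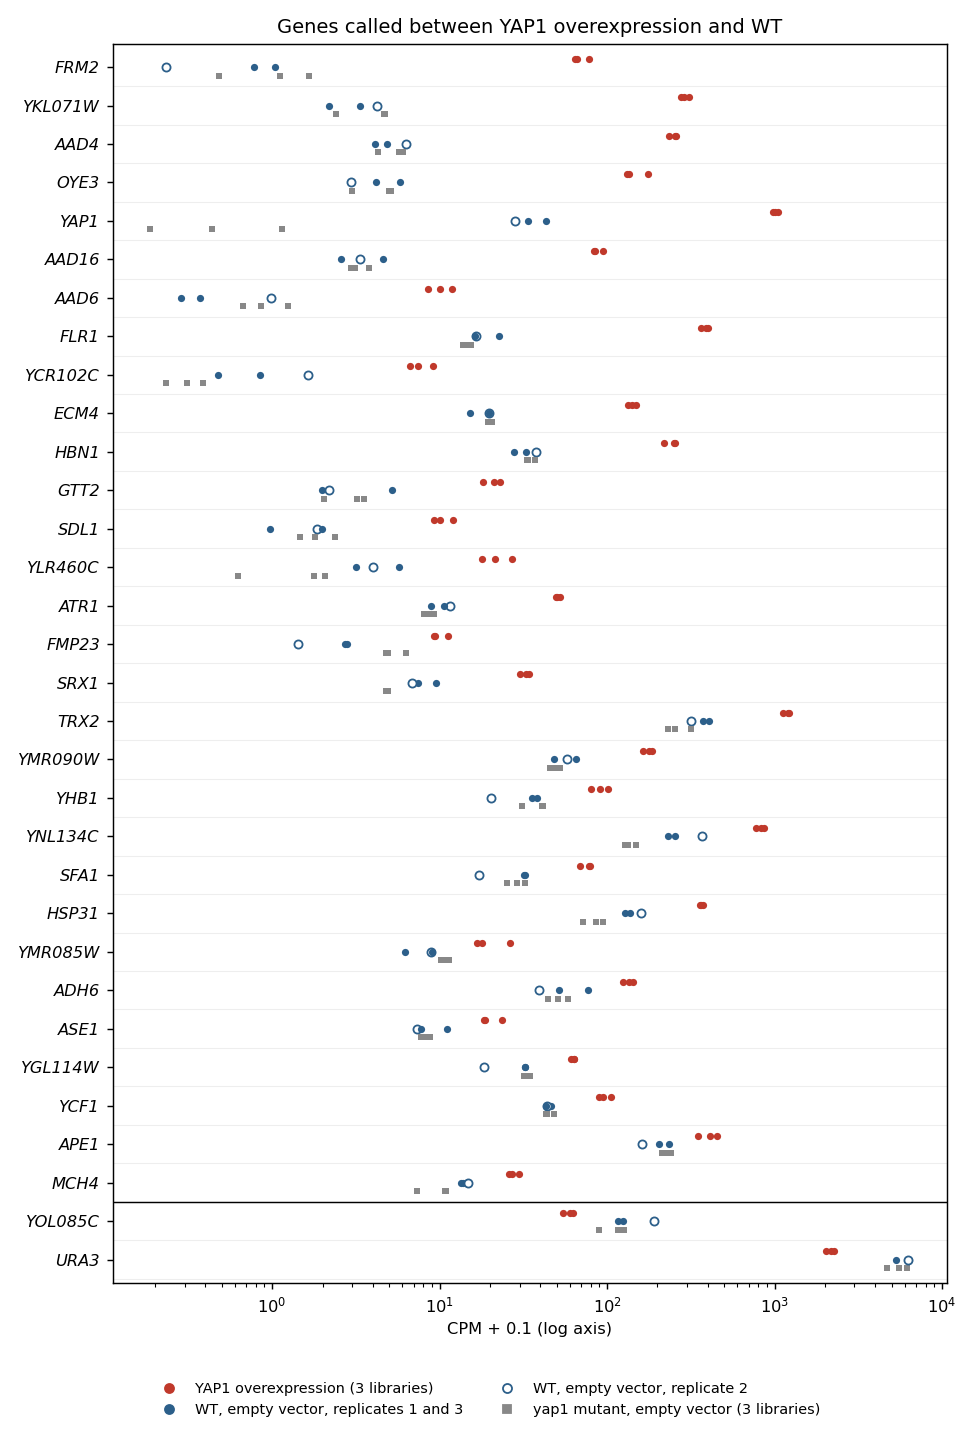
Level of each of the 32 called genes in each of the 9 plasmid libraries, in CPM plus 0.1 on a log axis, with genes ordered by fold change and the 2 lower genes under the line. Red points are YAP1 overexpression, blue points WT with empty vector (open for replicate 2) and grey squares the yap1 mutant with empty vector; in the 30 upper genes every red point lies to the right of every blue one.

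Sequence upstream of the genes that rose was read from the R64 reference, the assembly named sacCer3 in the submitters' notes. Both common forms of the Yap1-responsive element, TTACTAA and TGACTAA, were searched on both strands in the 500 bp before each start codon, and the 2 forms cannot overlap at the same position. At least 1 match stood before 23 of the 28 loci called higher other than *YAP1* (82.1%), and before 1014 of 5873 tested genes with such a window (17.3%). Loci with 2 or more matches were 13 of the 28 (46.4%), against 102 of the 5873 (1.74%). *AAD16* and *AAD6* count here as 1 locus, because R64 joins both rows into YFL056C, a pseudogene in that annotation. *AAD4* and that locus, and likewise *YCR102C* and *YLR460C*, are near copies, so the 28 loci are not fully separate. Of the 41 matches before these loci, 30 had the form TTACTAA and 11 the form TGACTAA. With 1000 bp the count stayed at 23 of 28, against 1717 of 5873 tested genes (29.2%). A match describes these letters and says nothing of binding.

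The stretches below are the pairs of matches that stand closest together before genes called higher, shown because several of the largest rises had tandem or mirrored copies. Capitals mark the element, TTAGTAA and TTAGTCA being TTACTAA and TGACTAA read on the other strand.
YKL071W: tgagaTTAGTAAtgtgaTTAGTAAtgcat
ECM4: ctccgTTACTAAgataTTAGTCAgctct
YHB1: ctcgaTTACTAAtcgTTACTAAaatag
FLR1: tcTGACTAAtgggcgggataaTTAGTCAgg
AAD6/AAD16: gcTTACTAAttttgctctcaaTTAGTAAgc
They lie at chrXI:304935-304963 (+ strand) for *YKL071W*, chrXI:582099-582126 (+) for *ECM4*, chrVII:959492-959518 (+) for *YHB1*, chrII:254349-254378 (-) for *FLR1* and chrVI:15646-15675 (-) for the *AAD6*/*AAD16* locus. The 2 elements start 12 bases apart before *YKL071W*, 11 before *ECM4*, 10 before *YHB1* and 19 before both *FLR1* and *AAD6*/*AAD16*. *YKL071W* had 5 matches, all on the other strand, between 222 and 156 bp before its start codon, the most of any gene called higher. *FLR1* and *HBN1* had 3 matches each.

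The neighbouring windows of the paralogues *YCR102C* and *YLR460C*, shown because both genes rose, were nearly the same.
YCR102C: atagacaataTTACTAAgtgttcctca
YLR460C: atagacgataTTACTAAgtgttcctca
YCR102C: ttgtctcagcTGACTAAgatgtctcgg
YLR460C: ttgtctcagcTGACTAAgatgtctcgg
The TTACTAA windows (chrIII:305642-305668 and chrXII:1061038-1061064, both - strand) differed at 1 of 27 bases, and the TGACTAA windows (chrIII:305792-305818 and chrXII:1061188-1061214) at 0 of 27. Single or spaced matches before a thioredoxin, an oxidoreductase, 2 efflux and 1 glutathione gene had these surroundings.
TRX2: ggctcttttcTTACTAAgcgcgttcag
OYE3: gcaataaccaTTACTAAgcacagtgtt
ATR1: aatatagtgaTTACTAAtggaatggcg
YCF1: aggttacggcTTAGTAAttacgaaatt
GTT2: ctttcactgcTTACTAAttcattcgtt
These windows lie at chrVII:913392-913418 (-), chrXVI:227503-227529 (-), chrXIII:37777-37803 (+), chrIV:727698-727724 (-) and chrXII:21921-21947 (-). The 5 loci called higher with 0 matches in 500 bp were *FRM2*, *YMR090W*, *SFA1*, *YMR085W* and *ASE1*, and *YAP1* had 0 as well. *FRM2*, whose fold change was the largest of the called genes with all libraries and came after that of *YKL071W* without WT replicate 2, had 0 matches also in 1000 bp. *FRM2* and *HBN1* were the only called genes next to each other on a chromosome, on the same strand of chromosome III with 717 bp between them, and the 3 matches of *HBN1* lie in that gap.

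**Figure D2:**
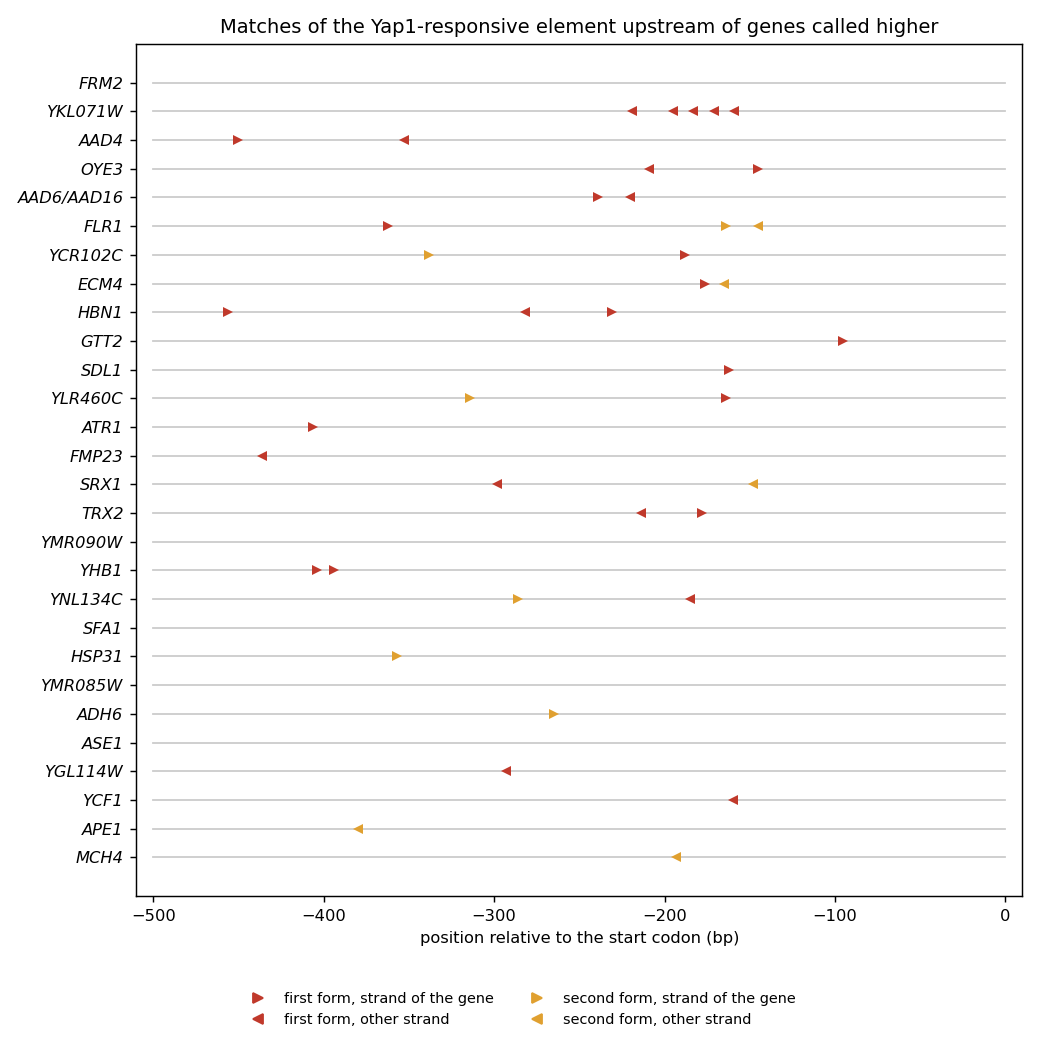
Matches of the element in the 500 bp before the start codon of the 28 loci called higher other than YAP1, ordered by fold change, with position in bp on the horizontal axis. Red and yellow triangles are the first (TTACTAA) and second (TGACTAA) forms and point right on the strand of the gene and left on the other; 23 loci have at least 1 triangle and YKL071W has 5.

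Within 30 kb of a chromosome end lay 8 of the 29 loci called higher with all libraries (27.6%), against 341 of 5942 tested genes with a position (5.74%). The 8 were *YCR102C*, *AAD4*, *HSP31*, *SDL1*, *AAD6*/*AAD16*, *GTT2*, *YLR460C* and *ADH6*. *AAD4* and *AAD6*/*AAD16*, and likewise *YCR102C* and *YLR460C*, are near copies that may share reads, so the 8 are not fully separate.

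Among the gene lists, that of oxidoreductases and flavin enzymes held the most genes called higher. The lists were chosen with earlier results of these data known, so its counts and median describe its members and are no test. Of 23 tested members of this list, 8 were called higher and 0 lower with all libraries, and 15 were called higher without WT replicate 2. Over all genes tested, 0.442% were called higher with all libraries and 1.47% without WT replicate 2, the background for each list below. All 23 fold changes were positive with all libraries, with a median of 1.15, while the median of all genes tested was -0.0016. In the fit without WT replicate 2, 22 were positive, with a median of 1.08. *FRM2*, a protein related to bacterial nitroreductases, had 65.8, 64 and 77.5 CPM in the overexpression libraries and 0.675, 0.132 and 0.937 CPM in the WT libraries, where these levels rest on 10, 3 and 20 counts. Its log2 fold change was 6.91 ± 0.55 (adjusted p = 0.00026), and 6.40 ± 0.35 without WT replicate 2. *HBN1*, the neighbouring gene of the same family, was detected well in both groups, with 254.8, 252.1 and 219.4 CPM in the overexpression libraries and 27.6, 37.3 and 32.7 CPM in the WT libraries. Its log2 fold change was 2.89 ± 0.16 (adjusted p = 1.5e-06), and 3.02 ± 0.16 without WT replicate 2.

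*YKL071W*, an uncharacterized protein of the short-chain dehydrogenase type, had 288.0, 274.4 and 310.1 CPM in the overexpression libraries, against 2.09, 4.14 and 3.23 CPM in the WT libraries. Its log2 fold change was 6.51 ± 0.33 (adjusted p = 1.4e-06), and 6.76 ± 0.28 without WT replicate 2. *OYE3*, an NADPH dehydrogenase of the old yellow enzyme family, had 132.1, 175.6 and 136.0 CPM against 5.67, 2.87 and 4.08 CPM in WT. It rose by 5.15 ± 0.30 (adjusted p = 3.9e-06), and by 4.96 ± 0.26 without WT replicate 2. In both genes the lowest overexpression library stood far above the highest WT library. The *yap1* mutant was at 2.32 to 4.60 CPM in *YKL071W* and at 2.90 to 5.03 CPM in *OYE3*.

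*YCR102C*, *YLR460C* and *YNL134C* belong to 1 family of quinone oxidoreductase-like proteins. *YNL134C* had 832, 777 and 865 CPM in the overexpression libraries and 232.0, 369.6 and 255.6 CPM in the WT libraries, a log2 fold change of 1.53 ± 0.19 (adjusted p = 0.0026). WT replicate 2 was the highest WT library here, and without it the fold change was 1.78 ± 0.14. *YLR460C* had 21.4, 17.8 and 26.9 CPM against 5.60, 3.88 and 3.05 CPM in WT, a log2 fold change of 2.41 ± 0.39 (adjusted p = 0.019), and 2.38 ± 0.38 without WT replicate 2. *YCR102C* had 7.31, 6.56 and 9.0 CPM against 0.743, 1.54 and 0.375 CPM in WT, a log2 fold change of 3.08 ± 0.47 (adjusted p = 0.013), and 3.83 ± 0.48 without WT replicate 2. The last 300 bases of *YCR102C* and *YLR460C* were 86.7% identical and the authors counted multiple alignments, so reads of one may be counted on the other. *ADH6*, an NADPH-dependent alcohol dehydrogenase, had 124.3, 135.8 and 141.8 CPM in the overexpression libraries and 76.8, 39.3 and 51.6 CPM in the WT libraries. It rose by 1.26 ± 0.22 (adjusted p = 0.030), and by 1.08 ± 0.17 without WT replicate 2. The calls of *YCR102C*, *YLR460C* and *ADH6* were lost without each overexpression library in turn, with adjusted p of up to 0.081, 0.096 and 0.18, and those of *YLR460C* and *ADH6* also without WT replicate 3.

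The aryl-alcohol dehydrogenase (AAD) family, named for similarity to a fungal enzyme that degrades lignin compounds, had 3 of 8 members called higher with all libraries and 5 of 8 without WT replicate 2. Its median log2 fold change was 2.20 with all libraries and 2.47 without WT replicate 2, and all 8 values were positive in both fits. *AAD4* had 234.4, 255.9 and 256.9 CPM in the overexpression libraries and 4.73, 6.17 and 4.03 CPM in the WT libraries, a log2 fold change of 5.64 ± 0.22 (adjusted p = 2.1e-07). *AAD16* had 84.4, 83.1 and 93.9 CPM against 4.52, 3.26 and 2.48 CPM in WT, a log2 fold change of 4.68 ± 0.22 (adjusted p = 8.0e-07). *AAD6* had 8.45, 11.7 and 9.99 CPM against 0.270, 0.882 and 0.187 CPM in WT, a log2 fold change of 4.43 ± 0.51 (adjusted p = 0.0014). The 3 values without WT replicate 2 were 5.86 ± 0.20, 4.69 ± 0.23 and 5.48 ± 0.51. These 3 rows are uncertain as separate genes, since *AAD16* and *AAD6* are 1 locus in R64 and the last 300 bases of *AAD4* and of that locus were 96.3% identical. *AAD15* and *AAD3*, 97.0% identical over the same length, were called without WT replicate 2, at 3.20 ± 0.64 and 1.73 ± 0.42, and with all libraries by DESeq2 (both) and voom (*AAD15*). *AAD10*, *AAD14* and *YPL088W* were not called in either fit, with log2 fold changes of 0.57, 0.46 and 0.38.

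Of 29 tested efflux transporters for drugs and metals, 3 were called higher and 0 lower, with and without WT replicate 2, and the list median was 0.04 with all libraries and -0.03 without that library. *FLR1*, a drug:H+ antiporter of the major facilitator superfamily, had 365.6, 398.1 and 390.2 CPM in the overexpression libraries and 22.5, 16.3 and 16.2 CPM in the WT libraries. Its log2 fold change was 4.39 ± 0.18 (adjusted p = 2.1e-07), and 4.34 ± 0.18 without WT replicate 2. *ATR1*, a transporter of the same superfamily that confers resistance to aminotriazole, had 49.9, 52.3 and 49.6 CPM against 8.84, 11.5 and 10.5 CPM in WT. It rose by 2.30 ± 0.15 (adjusted p = 9.4e-06), and by 2.40 ± 0.17 without WT replicate 2. *YCF1*, the vacuolar ABC transporter of glutathione conjugates and cadmium, had 93.8, 89.2 and 105.9 CPM against 46.2, 43.7 and 43.0 CPM in WT. Its log2 fold change was 1.12 ± 0.13 (adjusted p = 0.0012), and 1.13 ± 0.14 without WT replicate 2. In each of the 3 genes the spread within either group was small beside the gap between the groups.

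*PDR5* and *SNQ2*, ABC pumps of the plasma membrane, were not called. *PDR5* had 26.7, 25.5 and 21.9 CPM in the overexpression libraries and 37.3, 22.2 and 26.7 CPM in the WT libraries. *SNQ2* had 43.6, 47.3 and 38.9 CPM against 37.5, 25.4 and 36.7 CPM in WT. A pair of membrane proteins outside this list also rose. *YGL114W*, annotated as a putative oligopeptide transporter, rose by 1.18 ± 0.20 (adjusted p = 0.025), and *MCH4*, related to monocarboxylate permeases, by 0.98 ± 0.18 (adjusted p = 0.046). They were also called without WT replicate 2, at 0.97 ± 0.14 and 1.03 ± 0.20. Both calls were lost without each overexpression library in turn, with adjusted p of up to 0.15 and 0.29, and that of *MCH4* also without WT replicate 1 or 3.

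The thioredoxin and peroxiredoxin system, which passes electrons from NADPH to peroxides and disulfides, had 2 of 13 members called higher, 3 without WT replicate 2, 5 by DESeq2 and 3 by voom. DESeq2 and voom also called more of all genes higher than edgeR did with all libraries, as given under the processing, here and for the lists below. All 13 fold changes were positive with all libraries, with a median of 0.61, and 12 were positive without WT replicate 2, with a median of 0.49. *TRX2*, a cytoplasmic thioredoxin, had 1224, 1209 and 1126 CPM in the overexpression libraries and 374, 318 and 406 CPM in the WT libraries, a log2 fold change of 1.70 ± 0.17 (adjusted p = 0.00059), and 1.63 ± 0.15 without WT replicate 2. Its paralogue *TRX1* had 212.3, 194.5 and 209.6 CPM against 212.3, 79.1 and 225.5 CPM in WT and was not called. *SRX1*, the sulfiredoxin that repairs overoxidized peroxiredoxins, had 32.6, 33.9 and 30.1 CPM against 7.36, 6.70 and 9.47 CPM in WT, a log2 fold change of 2.04 ± 0.18 (adjusted p = 0.00014), and 1.95 ± 0.20 without WT replicate 2. *PRX1*, the mitochondrial peroxiredoxin, was called without WT replicate 2, at 0.75 ± 0.15, and with all libraries by DESeq2 and voom. *TRR1*, the thioredoxin reductase, had a log2 fold change of 0.61 ± 0.16 with all libraries and 0.53 ± 0.14 without that library (adjusted p = 0.26 and 0.058 in edgeR), and was called by DESeq2, as was *TRR2*.

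In the glutathione system 2 of 27 members were called higher, 4 without WT replicate 2, 3 by DESeq2 and 4 by voom. The list median was 0.10 with all libraries and 0.18 without WT replicate 2. *ECM4*, a glutathione transferase of the omega class, had 140.8, 147.9 and 133.7 CPM in the overexpression libraries and 15.2, 19.7 and 19.7 CPM in the WT libraries. It rose by 2.95 ± 0.15 (adjusted p = 8.5e-07), and by 3.03 ± 0.16 without WT replicate 2. *GTT2*, another glutathione transferase, had 18.1, 22.8 and 21.1 CPM against 5.06, 2.07 and 1.87 CPM in WT, a log2 fold change of 2.81 ± 0.38 (adjusted p = 0.0046), and 2.63 ± 0.36 without WT replicate 2. *GPX2*, a peroxidase, and *GLR1*, the glutathione reductase, were called without WT replicate 2, at 1.5 ± 0.24 and 0.70 ± 0.15. With all libraries voom called both and DESeq2 *GPX2*. Among the 6 superoxide dismutases, catalases and peroxidases, 0 were called by edgeR with all libraries, where 2 had an unadjusted p under 0.05, 0 by DESeq2, and *CCS1* by voom. Without WT replicate 2 edgeR called *SOD1* and its copper chaperone *CCS1*, at 0.59 ± 0.13 and 0.83 ± 0.17. *SOD1* had 1650, 1562 and 1554 CPM in the overexpression libraries, against 1066, 1667 and 1071 CPM in WT, so that WT replicate 2 was above all 3 overexpression libraries.

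The remaining genes that rose fall outside 1 pathway. *YHB1*, the flavohemoglobin that detoxifies nitric oxide, had 100.5, 79.7 and 90.9 CPM in the overexpression libraries and 38.2, 20.2 and 35.5 CPM in the WT libraries, a log2 fold change of 1.53 ± 0.23 (adjusted p = 0.011). *SFA1*, the glutathione-dependent formaldehyde dehydrogenase, had 78.0, 68.7 and 79.2 CPM against 31.8, 17.2 and 32.3 CPM in WT, a log2 fold change of 1.48 ± 0.22 (adjusted p = 0.011). *HSP31*, a methylglyoxalase of the DJ-1 family, had 376, 357 and 364 CPM against 128, 160 and 137 CPM in WT, a log2 fold change of 1.37 ± 0.16 (adjusted p = 0.0012). Without WT replicate 2, the fold changes of *YHB1*, *SFA1* and *HSP31* were 1.31 ± 0.16, 1.25 ± 0.15 and 1.48 ± 0.15. The calls of *YHB1* and *SFA1* were lost in the fit of the 6 libraries alone (adjusted p = 0.077 and 0.086), and that of *SFA1* also without overexpression replicate 2 (adjusted p = 0.051). Of 27 heat shock proteins and chaperones, edgeR called *HSP31* with all libraries, and *HSP31*, *HSP30*, *BTN2*, *HSP82* and *SSA3* without WT replicate 2. With all libraries DESeq2 called *HSP31*, *HSP30*, *BTN2* and *CPR6*, and voom *HSP31* and *BTN2*.

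*YMR090W*, of unknown function, had 162.6, 184.4 and 178.6 CPM against 48.3, 57.7 and 64.9 CPM in WT, a log2 fold change of 1.62 ± 0.15 (adjusted p = 0.00020). The vacuolar aminopeptidase *APE1* had 350.3, 456.1 and 410.5 CPM against 204.4, 160.7 and 234.2 CPM in WT, a log2 fold change of 1.02 ± 0.18 (adjusted p = 0.029). Without WT replicate 2, *YMR090W* and *APE1* were at 1.65 ± 0.15 and 0.91 ± 0.15. The other 4 were *SDL1* at 2.76 ± 0.34, the mitochondrial protein *FMP23* at 2.16 ± 0.31, *YMR085W* at 1.34 ± 0.23 and *ASE1*, a microtubule-bundling protein of the spindle midzone, at 1.23 ± 0.21. They had adjusted p of 0.0026, 0.0075, 0.028 and 0.026, at means of 9.85 to 20.2 CPM in the overexpression libraries. The values without WT replicate 2 were 2.90 ± 0.39, 1.91 ± 0.30, 1.44 ± 0.25 and 1.15 ± 0.23. With 1 library left out in turn, the call of *FMP23* was lost without overexpression replicate 2 (adjusted p = 0.057). Those of *YMR085W*, *ASE1* and *APE1* were each lost without overexpression replicate 2 and at least 1 WT library, with adjusted p of up to 0.17, 0.18 and 0.18, and *ASE1* also without overexpression replicates 1 and 3, *YMR085W* without 1 and *APE1* without 3. *SDL1* is a pseudogene in R64, where it shares 1 locus with the row *YIL168W*.

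The 2 genes that fell were *URA3* and *YOL085C*. The study's genotype lists the chromosomal *URA3* gene as deleted, so by that genotype the *URA3* row counts the plasmid marker. *URA3*, which makes an enzyme of pyrimidine synthesis and is the marker of pRS426, had 2160, 2022 and 2250 CPM in the overexpression libraries, against 6340, 6240 and 5302 CPM in the WT libraries, and the *yap1* mutant with the empty vector had 6180, 4662 and 5531 CPM. The log2 fold change over WT was -1.48 ± 0.18 (adjusted p = 0.0024), and -1.42 ± 0.15 without WT replicate 2. *YOL085C*, an uncharacterized reading frame, had 62.3, 59.6 and 54.6 CPM in the overexpression libraries and 124.6, 191.7 and 116.1 CPM in the WT libraries, a log2 fold change of -1.29 ± 0.21 (adjusted p = 0.019), and -1.01 ± 0.15 without WT replicate 2. Its call was lost without each overexpression library in turn, with adjusted p of up to 0.15. It lies at chrXV:161673-162014 on the - strand, 1078 bp before *ADH1*, whose promoter the vector carries. The length of that promoter fragment is not given in the sources used here. The part of plasmid copies in the *YOL085C* value and the cause of the *URA3* fall were not tested.

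Without WT replicate 2, a further 70 genes were called higher and 10 lower, and the 10 largest of each direction among those with a mean of at least 10 CPM over the 6 libraries were examined, of which 9 rises and 10 falls are described. *GRE2*, a methylglyoxal reductase, had 210.0, 208.5 and 298.8 CPM in the overexpression libraries and 37.0, 3.13 and 44.3 CPM in the WT libraries. Its log2 fold change was 3.09 ± 0.77 (adjusted p = 0.29) with all libraries and 2.57 ± 0.18 (adjusted p = 2.9e-09) without WT replicate 2. *OYE2*, the paralogue of *OYE3*, had 483.2, 493.0 and 689.9 CPM against 160.2, 33.4 and 188.4 CPM in WT, with 2.13 ± 0.54 (adjusted p = 0.29) and 1.69 ± 0.17 (adjusted p = 1.5e-06). *YML131W*, a putative dehydrogenase, had 154.1, 210.9 and 225.9 CPM against 29.1, 2.29 and 30.7 CPM in WT, with 3.26 ± 0.80 (adjusted p = 0.29) and 2.74 ± 0.30 (adjusted p = 0.0010). DESeq2 with all libraries called these 3 genes, and voom *OYE2*. In these genes WT replicate 2 was the lowest library and widened the spread of WT, so leaving it out made the fold change smaller and the SE smaller too.

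The other rises described were *GPX2*, *YOL150C*, *REG2*, *YLL056C*, *HSP30* and *AIM46*, with log2 fold changes of 1.25 to 2.59 without WT replicate 2. In *GPX2*, *YOL150C* and *HSP30* that library was the lowest of WT. In *REG2* and *YLL056C* it was the highest, and the fold changes were 1.10 and 1.15 with it and 1.43 and 1.37 without it. *YOL150C* has no counterpart in R64, and its counts in each library were close to those of *GRE2*. The plasma membrane protein *HSP30* had 154.2, 182.3 and 144.9 CPM in the overexpression libraries and 55.2, 11.1 and 75.7 CPM in WT, and the *yap1* mutant had 125.5, 179.7 and 115.2 CPM. Elements within 500 bp stood before 22 of the 60 loci with a window among the 70 (36.7%), against 17.3% of tested genes. Loci with 2 or more matches were 4 of the 60 (6.67%), against 1.74% of tested genes.

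The 10 falls were smaller, from -0.56 to -0.89 without WT replicate 2. With all libraries their adjusted p ran from 0.055 (*WSC4*) to 0.90 (*YOR108C-A*). *WSC4*, which encodes a cell wall integrity sensor, was at -0.89 ± 0.17, *CIS3*, a cell wall glycoprotein, at -0.68 ± 0.14 and *GAS3*, a putative glucanosyltransferase, at -0.64 ± 0.15 without WT replicate 2. *CYC8*, the corepressor that works with Tup1, had 19.1, 21.9 and 18.9 CPM in the overexpression libraries and 37.7, 19.2 and 37.5 CPM in the WT libraries. *SWI4*, a transcription factor of G1, had 20.5, 26.5 and 20.4 CPM against 41.4, 31.7 and 32.9 CPM in WT. The linker histone *HHO1*, the RNA-binding protein *SCP160*, the *HO* endonuclease, *YDR089W* and *YOR108C-A* made up the rest. In *SCP160*, *GAS3*, *CIS3*, *YOR108C-A* and *CYC8*, WT replicate 2 lay within or below the overexpression libraries.

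**Figure D3:**
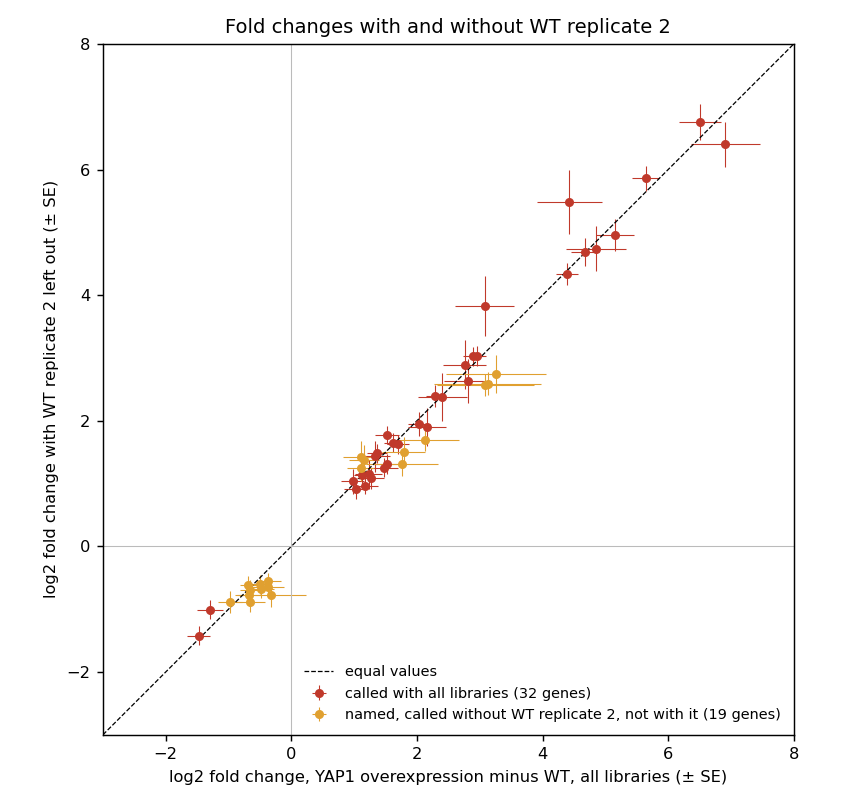
Log2 fold change of YAP1 overexpression over WT with all libraries (horizontal) and with WT replicate 2 left out (vertical), each ± SE, for the 32 called genes (red) and the 19 genes named from the fit without it (yellow). Most red points lie near the line of equal values, from 6.91 (FRM2) to -1.48 (URA3), AAD6 and YCR102C lie above it, and the widest horizontal bars belong to yellow points such as GRE2 and YML131W.

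**Figure D4:**
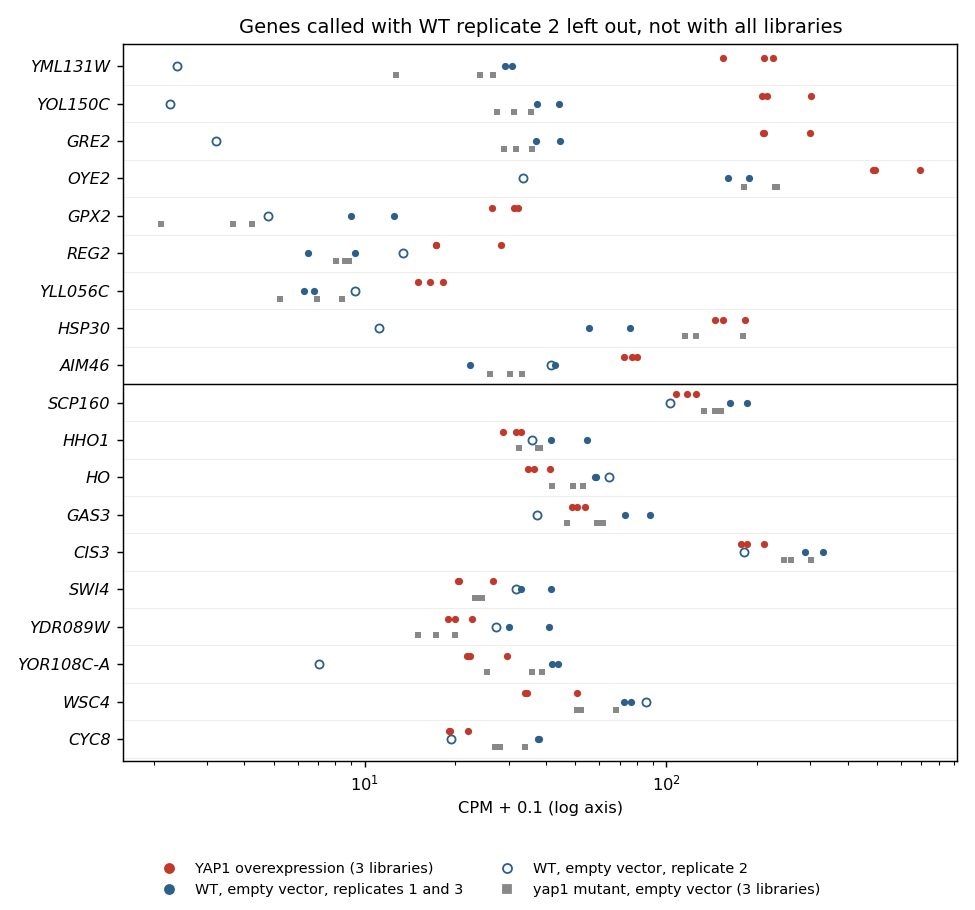
Level of the 19 genes named from the fit without WT replicate 2 in each of the 9 plasmid libraries, in CPM plus 0.1 on a log axis, with the 10 lower genes under the line. Open circles mark WT replicate 2, which is at 3.13 CPM in GRE2 and 33.4 CPM in OYE2, far left of the filled blue points.

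Lists of neighbouring pathways showed few or no calls. Counts here are of edgeR with all libraries unless another fit is named. With all libraries, 639 of all 6781 genes tested had an unadjusted p under 0.05 in edgeR. Of 15 genes of NADPH supply, 0 were called and 3 had an unadjusted p under 0.05. Only *GND2*, a 6-phosphogluconate dehydrogenase, was called by DESeq2 and, without WT replicate 2, by edgeR, at 1.04 ± 0.20. The list median was 0.39 with all libraries and 0.16 without WT replicate 2. Of 23 tested genes of sulfur assimilation, 0 were called and 2 had an unadjusted p under 0.05, while DESeq2, voom and edgeR without WT replicate 2 each called *MUP3*, a methionine permease. The 26 general stress genes of Msn2 and Msn4 had 0 calls and 3 unadjusted p under 0.05, and the 39 respiratory chain genes 0 and 1. In these lists DESeq2 and edgeR without WT replicate 2 called *SPI1* and *CYC7*, and voom called 0.

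No gene of 5 further lists was called by edgeR with or without WT replicate 2. With all libraries an unadjusted p under 0.05 was found for 0 of 19 genes of the iron regulon, 5 of 12 of cadmium, arsenic and metal handling, 2 of 23 of ergosterol synthesis, 1 of 25 of glycolysis and fermentation and 2 of 32 of the proteasome. Without WT replicate 2 these counts were 4, 4, 5, 4 and 1. The number among all genes tested is not given for that fit, so these counts have no background beside them. DESeq2 and voom called 0 in these lists except for *ARR2*, an arsenate reductase, called by DESeq2. *RPN4*, the transcription factor of proteasome genes, was called by edgeR without WT replicate 2, at 0.68 ± 0.15. The positive medians of glycolysis (0.38) and the respiratory chain (0.21) were 0.06 and 0.01 without WT replicate 2, against medians of all genes of -0.0016 and 0.0082.

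**Figure D5:**
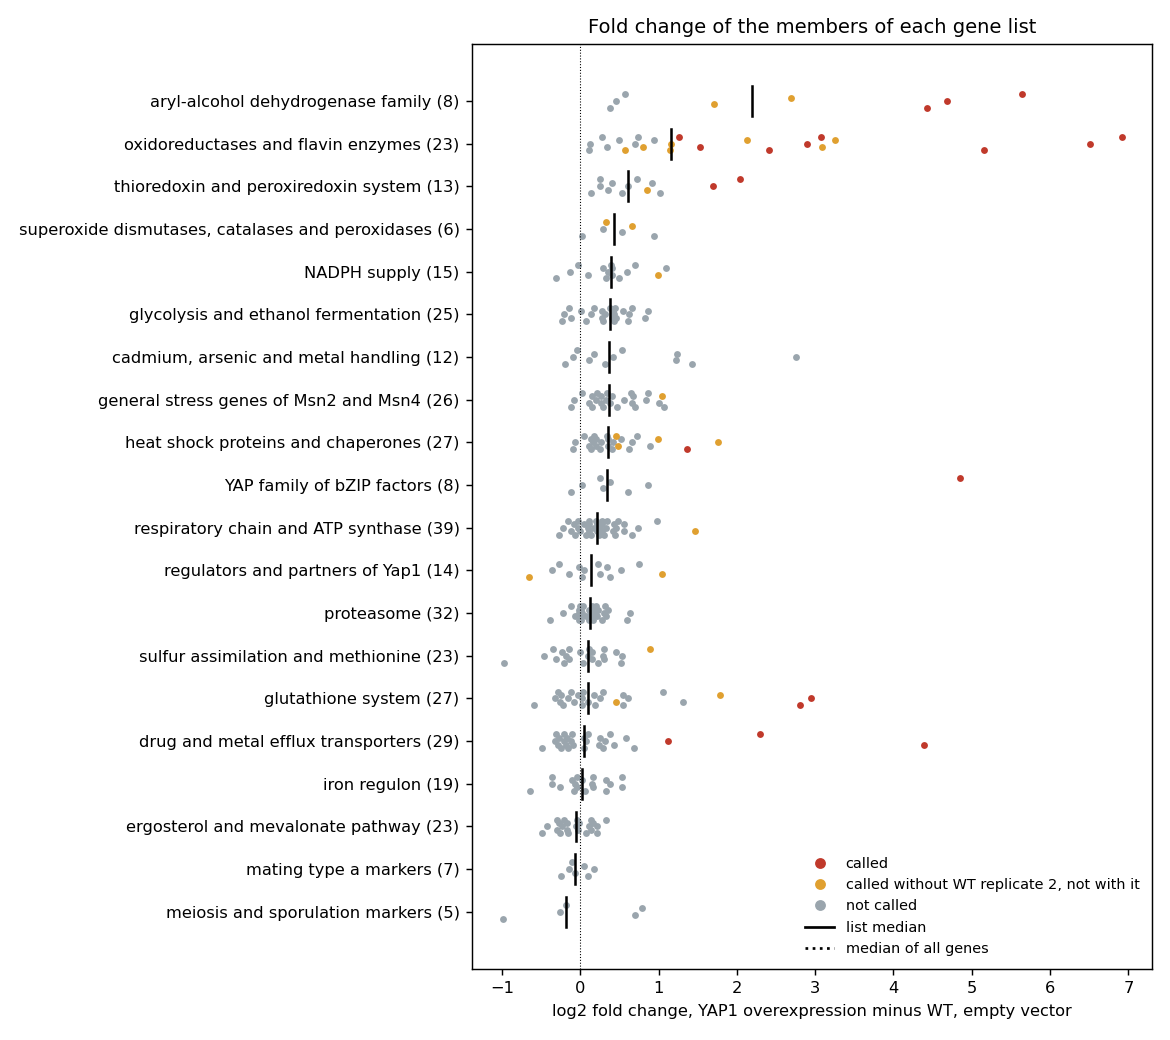
Log2 fold change of YAP1 overexpression over WT, all libraries, for the tested members of each gene list (number in brackets), with lists ordered by their median (black bar). Red points are called genes, yellow points genes called without WT replicate 2 but not with all libraries, and grey points the rest; the AAD family (median 2.20) and the oxidoreductases (1.15) stand at the top, and the dotted line is the median of all genes.

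Against the *yap1* mutant, the other group with the empty vector, 45 of 6781 genes were called higher in the overexpression strain (0.664%) and 21 lower (0.31%). This comparison uses the same 3 overexpression libraries, so it is no independent repeat and its values are set beside those over WT. WT replicate 2 is in neither group here but entered the spread behind these adjusted p, and values without it are not given. The fit of these groups alone, given under the processing, called more genes in both directions. *FLR1* was at 13.8 to 15.2 CPM in the mutant, with a log2 fold change of 4.74 over the mutant and 4.39 over WT. *FRM2* had 6.14 and 6.91, *YKL071W* 6.25 and 6.51, *AAD4* 5.57 and 5.64, and *ECM4* 2.83 and 2.95. *YCR102C* had 5.16 over the mutant and 3.08 over WT, *YLR460C* 3.97 and 2.41, *YNL134C* 2.60 and 1.53, and *HSP31* 2.12 and 1.37, and the differences between the 2 comparisons were not tested. The mutant was at 0.21, 0.13 and 0.28 CPM in *YCR102C* and 1.68, 1.98 and 0.52 CPM in *YLR460C*, levels that rest on few counts. In *YNL134C* the mutant had 127.2, 133.7 and 148.5 CPM, below all 3 WT libraries. *TRX2* had 2.15 over the mutant and 1.70 over WT.

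*FMP23* had 0.91 over the mutant (adjusted p = 0.26), where it had 6.19, 4.83 and 4.69 CPM, and 2.16 over WT. *YMR085W*, *YGL114W* and *APE1*, called over WT, had 0.92, 0.92 and 0.84 over the mutant, with adjusted p of 0.091, 0.061 and 0.059. *URA3* was lower than in the mutant by a log2 fold change of -1.35 (adjusted p = 0.0037), and *YOL085C* had -0.91 (adjusted p = 0.075).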

How the data were processed

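QuantSeq 3′ mRNA-Seq libraries were sequenced as single reads by the authors, aligned with Bowtie2 (genome sacCer3 in the submitters' notes) and counted per gene over unique and multiple alignments with bedtools, with no versions given in the sources used here. The deposited values are raw counts per gene, without normalization. The 9 plasmid libraries were joined by row position over 7126 rows, since 169 names differed in WT replicate 2, and 6129 rows were paired with R64. The 301 rows of genes that overlap another annotated gene are uncertain, and whether counting used strand is not given in the sources used here. The 4 libraries without plasmid and 1 table of another study were not used.

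The 9 plasmid libraries were fitted with edgeR 4.0.16 in R 4.3.3 (filterByExpr with a minimum count of 10, TMM, robust quasi-likelihood F test, group as the only factor, Benjamini-Hochberg adjustment, threshold 0.05), after the study, which names edgeR. SE was the size of the log2 fold change over the square root of F, with edgeR's default prior count. A prior count of 1 was used in the log2 levels that compared the libraries. The code was tested on simulated data. Alternatives were DESeq2 1.42.0, limma 3.58.1 voom with quality weights, RLE, upper-quartile and library-size scaling, other filters (none, or 50 counts in 3 libraries), rRNA rows left out, 6 libraries only, a replicate block, each library left out and a promoter window of 1000 bp in place of 500 bp. Genes named were all genes called with all libraries, list members by counts with examples, and, without WT replicate 2, the 10 largest rises and falls called there but not with all libraries, with a mean of at least 10 CPM. 1 of these rises is not reported here. *YIL168W* was named after its values were seen. The genes and lists were chosen with earlier results of these data known. Promoters were scanned in R64 with Python 3.11.15, and gene ends of 300 bases were compared with BLAST+ 2.17.0 (E-value 1e-10, at least 80 bases). With totals of 19375047 to 25609092 counts, the spread between replicates exceeded counting error in every pair of replicates.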

Additional observations from a re-analysis of the deposited data

How the results depend on the processing

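The log2 fold change of *YAP1* kept its direction and its call under all alternatives, at 4.74 to 5.36. All 32 genes called over WT kept their direction under each of the 16 alternatives, and 20 kept their call under all of them. The counts moved more. Over WT, DESeq2 called 85 higher and 9 lower, voom with quality weights 47 and 7, and scaling by library size only 266 and 1. That scaling moved the median of all genes to 0.45 and turned the direction of *SCP160* (0.17), *HHO1* (0.0052), *GAS3* (0.18), *CIS3* (0.049) and *YOR108C-A* (0.28), and *YOR108C-A* ranged from -0.78 to 0.025 with 1 library left out in turn, the highest without WT replicate 3. The fit of the 6 libraries alone called 20 higher and 1 lower and lost the calls of *YCR102C*, *FMP23*, *YHB1*, *SFA1*, *YMR085W*, *ADH6*, *ASE1*, *YGL114W*, *APE1*, *MCH4* and *YOL085C*. Over the *yap1* mutant, DESeq2 called 132 higher and 58 lower, voom 182 and 119, library-size scaling 37 and 3, and the 6 libraries alone 202 and 126. The cause of these moves was not tested.

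Leaving out 1 library in turn gave 20 to 100 higher and 1 to 12 lower genes over WT, the highest counts without WT replicate 2 and the lowest without *YAP1* overexpression replicate 2, and 24 to 30 higher and 3 to 6 lower over the mutant. The difference in rRNA share ranged from -20.5 to -10.4 percentage points, and its direction held. Same-numbered libraries of both groups did not deviate together (r = -0.11, -0.04 and 0.12), so the numbers were not taken as pairs. With a replicate block 24 genes were called higher and 2 lower over WT, without *YCR102C*, *YLR460C*, *YMR085W*, *ASE1*, *YGL114W*, *APE1* and *MCH4*, and 34 and 7 over the mutant. Chosen after seeing the data, the 6 libraries alone without WT replicate 2 called 107 and 17, and the replicate block without it 92 and 14. Genes near or under 1 CPM, such as *YCR102C* and *AAD6* in WT and in the mutant, rest on few counts.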
